A study of Caenorhabditis elegans with 36 samples.

Results

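The 10 genes described here decide, in the *C. elegans* hermaphrodite germline, when germ cells leave mitosis and whether they become sperm or oocytes. They are *glp-1* (F02A9.6), *gld-1* (T23G11.3), *fbf-1* (H12I13.4), *fbf-2* (F21H12.5), *tra-1* (Y47D3A.6), *tra-2* (C15F1.3), *fem-3* (C01F6.4), *fog-1* (Y54E10A.4), *fog-2* (Y113G7B.5) and *fog-3* (C03C11.2), and they were chosen by name for these known roles, without a measured value in the rule. Earlier results of these data were known when they were chosen. All 10 were found among the 45904 gene names of the count tables. The data come from wild-type animals (strain N2) and *mut-16(pk710)* mutants (strain NL1810), grown from synchronized L1 larvae at 20°C or 25°C for a single generation. Whole day 1 adults were harvested, 8000 animals per sample. The animals grown at 20°C had then been on plates for about 68 h and those grown at 25°C for about 48 h, so that temperature and time of harvest cannot be told apart in any comparison between the temperatures. The same 4 groups were profiled by mRNA-seq and by small RNA-seq of RNAs of 18 to 30 nucleotides, with 3 biological replicates per group and 24 libraries in all, whereas the chromatin samples of the study were not analysed here.

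MUT-16 is a scaffold protein that assembles Mutator foci, perinuclear granules in which RNA-dependent RNA polymerases copy target mRNAs into antisense small RNAs. A hermaphrodite makes sperm as a larva and then switches permanently to oocytes. GLP-1 is the Notch receptor that receives the signal of the distal tip cell and keeps germ cells in mitosis, and the PUF-family RNA-binding proteins FBF-1 and FBF-2 act with it by repressing mRNAs that promote differentiation. GLD-1 is a STAR-family RNA-binding protein that drives meiotic entry and oogenesis and, together with the F-box protein FOG-2, represses *tra-2* mRNA so that sperm can form. TRA-2 is a membrane protein that promotes the female fate by holding back FEM-3, a component of the complex that removes the zinc-finger transcription factor TRA-1. FOG-1, a CPEB-type RNA-binding protein, and FOG-3, a Tob-family protein, stand at the end of this pathway and specify sperm. Repression of *fem-3* by FBF is the step that ends sperm production.

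Because much of this pathway acts through 3′ untranslated regions (UTRs), the 3′ UTRs of the members were searched on the RNA strand for the core of the FBF binding element, written as DNA letters TGTNNNAT, and for the hexamers TACTCA and TACTAA, to which GLD-1 binds. The FBF core occurred in the 3′ UTR of 9 of the 10 members, all but *fog-2*, compared with 56.0% of the 7577 annotated 3′ UTRs that lie in the members' length range of 143 to 1202 bases and 38.5% of all 16805. One of the hexamers occurred in 2 members, *gld-1* and *tra-2*, compared with 949 of the 7577 3′ UTRs in that length range and 7.85% of all. Matches of letters do not show that a protein binds there. The sites below come from the 3′ UTRs that carry the best known regulatory links of the pathway, with the matched letters in capitals. The first *fem-3* match (chrIV:9107465-9107484, plus strand, 3′ UTR) lies in the element through which FBF represses *fem-3*. The other is at chrIV:9107570-9107589, and no known link is assigned to it here. The 4 *tra-2* matches (between chrII:6955471-6955578, minus strand) lie in the 3′ UTR, through which GLD-1 and FOG-2 repress *tra-2*. Match 1 of *tra-2* lies apart from the others, and which of these matches fall in the repressing element itself was not tested. All coordinates are on WBcel235.
fem-3, FBF core, match 1: gcuucuUGUGUCAUucacuu
fem-3, FBF core, match 2: aagauuUGUUUAAUuuaaaa
tra-2, GLD-1 hexamer, match 1: auuucuUACUCAuuuucg
tra-2, GLD-1 hexamer, match 2: cuuaucUACUCAuaucua
tra-2, GLD-1 hexamer, match 3: cauaucUACUCAuauuua
tra-2, GLD-1 hexamer, match 4: cuuaucUACUCAuaucua
Matches 2 and 4 of *tra-2* were identical over their 18 bases. The FBF core was also present in the 3′ UTRs of *fbf-1* (4 matches) and *fbf-2* (2 matches), whose products are themselves FBF, and 2 windows of 20 bases were the same in both genes, at chrII:6078504-6078523 and chrII:6078374-6078393 in *fbf-1* and at chrII:6089075-6089094 and chrII:6088945-6088964 in *fbf-2*, all on the minus strand.
fbf-1 and fbf-2, FBF core, shared window: uuguuuUGUAAUAUuuuaaa
fbf-1 and fbf-2, FBF core, other shared window: ugcaguUGUGUUAUuguuuc

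*gld-1*, *fog-1* and *fog-3* aside, the members lie on chromosomes II (*fbf-1* at chrII:6078263-6080843, *fbf-2* at chrII:6088863-6091480 and *tra-2* at chrII:6955384-6965673, all on the minus strand), III (*glp-1* at chrIII:9092241-9099698 on the plus strand and *tra-1* at chrIII:11170890-11195201 on the minus strand), IV (*fem-3* at chrIV:9104966-9107607, plus strand) and V (*fog-2* at chrV:20199254-20200648, plus strand). All 10 are protein-coding genes.

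*fbf-1*, *fbf-2* and *fog-2* have near copies, which matters because the authors' counting program, Salmon, divides reads that match more than 1 transcript. The coding sequences of *fbf-1* and *fbf-2* were 94.4% identical over 1842 aligned bases, with the longest identical run at 210 bases. Of the windows of 75 bases, the length of an mRNA-seq read, 12.9% in *fbf-1* and 12.7% in *fbf-2* also occurred in another gene, and of the windows of 22 bases, a common length of these small RNAs, 42.0% and 41.2% did. The coding sequence of *fog-2* was 84.1% identical to that of its neighbour *ftr-1* (chrV:20196971-20198241), and 0.0929% of its windows of 75 bases and 11.7% of its windows of 22 bases were shared. In *tra-1*, 1.22% of the windows of 75 bases and 3.87% of those of 22 bases were shared with other genes. For the other 6 members no window of 75 bases was shared and at most 0.0697% of those of 22 bases were. The stretches of 30 coding bases with the most differences show what the counting could use to separate each pair, with the bases that differ in capitals. They lie at chrII:6080591-6080620 in *fbf-1* and chrII:6091241-6091270 in *fbf-2*, on the minus strand, and at chrV:20200346-20200375 in *fog-2* and chrV:20198056-20198085 in *ftr-1*, on the plus strand.
fbf-1, coding bases 55 to 84: ccCAcAtctacagAgGttgGAaAtCatcAT
fbf-2, coding bases 55 to 84: ccTCcTtctacagGgAttgACaGtTatcCG
fog-2, coding bases 825 to 854: CgTtTTGAgagCtAtcaatccAaattAcCA
ftr-1, coding bases 825 to 854: AgCtGCACgagTtTtcaatccGaattTcAT
The strand setting of the counting is not given in the sources used here, and 3 members overlap exons of a gene on the opposite strand, each by 26 bases or fewer (*glp-1* by 18, *fbf-1* by 15 and *tra-2* by 26).

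The mRNA libraries held 15432009 to 34195602 counts, the fewest in replicate 1 of *mut-16* mutants at 25°C. The small RNA libraries held 4760502 to 19060841, the fewest in replicate 3 of wild-type at 25°C. All 10 members passed the filter on low counts, which left 14623 genes to test for mRNA and 16025 for small RNA. The genes *gld-1*, *fog-1* and *fog-3* lie on chromosome I. Levels within a gene are given in CPM, the count scaled to a common library size by TMM, a factor that makes the bulk of genes comparable between libraries. The targeted gene followed its label, since *mut-16* mRNA stood at 121 to 127 CPM in wild-type and 44.5 to 71.7 CPM in *mut-16* mutants at 20°C, a log2 fold change of -1.12 ± 0.14 (SE, adjusted p = 2.33e-05). Throughout, a gene was called higher or lower at an adjusted p under 0.05 in the quasi-likelihood test of edgeR, with p adjusted over all genes tested by the method of Benjamini and Hochberg and 3 libraries per group.

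Levels were compared between members as RPKM, the counts scaled to library size and to the length of the exons. In wild-type at 20°C, *gld-1* mRNA was the most abundant, at 486 ± 55.6 RPKM (mean ± SD, n = 3). A middle group was formed by *fem-3* (62.6 ± 4.98), *fog-2* (61.2 ± 7.95) and *glp-1* (59.5 ± 2.15 RPKM), whose libraries overlapped. It was followed by *tra-2* (17.3 ± 0.622), *fbf-1* (16.3 ± 1.76), *fbf-2* (12.9 ± 1.39) and *fog-1* (12.4 ± 0.9 RPKM), where *tra-2* overlapped with *fbf-1* and *fbf-2* with *fog-1*. The zinc-finger factor *tra-1* stood at 8.23 ± 1.28 and *fog-3* at 0.505 ± 0.244 RPKM, below every library of the member before it. The same gene was first, and *tra-1* and *fog-3* were last, in all 4 groups. Small RNAs gave another order in wild-type at 20°C, with *fbf-2* (134 ± 5.67 RPKM) and *fbf-1* (127 ± 10.0) first and overlapping, *gld-1* at 75.7 ± 6.36, *glp-1* at 44 ± 0.752 and *fog-1* at 36.7 ± 2.16, the last overlapping with *fem-3* (32.7 ± 2.91). Below these were *tra-2* (27.4 ± 0.7) and *fog-2* (26.3 ± 3.2), which overlapped, *tra-1* (21.2 ± 1.29) and *fog-3* (10.0 ± 1.05 RPKM). In *mut-16* mutants at 20°C, *fog-1* had moved to the last place of the small RNA order, at 6.01 ± 0.189 RPKM.

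**Figure D1:**
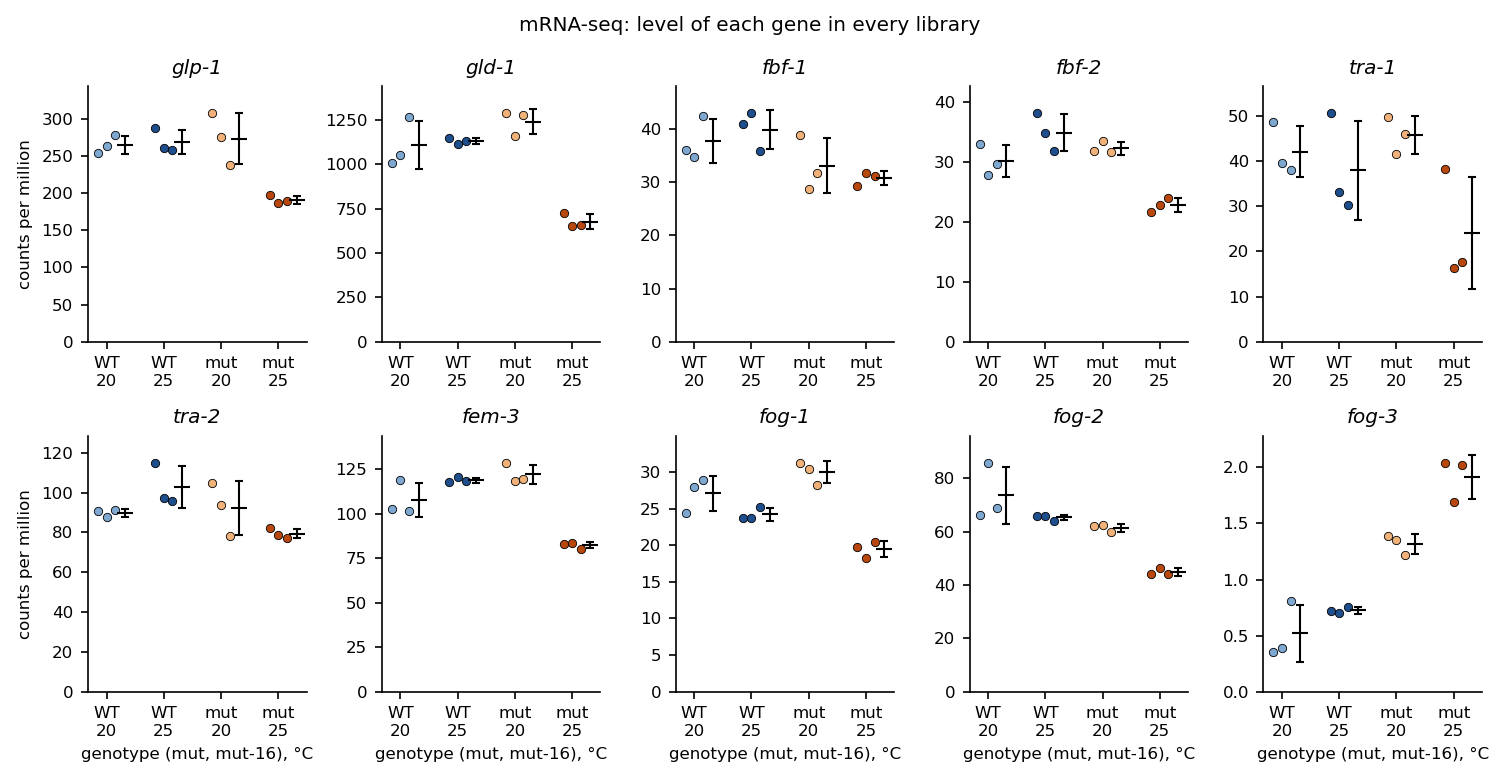
mRNA level of each member (CPM, TMM-scaled, linear axes from 0) in every library of wild-type (blue) and *mut-16* mutants (orange) at 20°C and 25°C, with the mean and SD of 3 replicates beside the points. In 7 members the 3 libraries of *mut-16* at 25°C lie below all of those of *mut-16* at 20°C, in *fog-3* they lie above all others, and replicate 1 of *tra-1* stands above the other replicates. The share of all genes with such a separation was not counted.

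The first question was whether the switch genes respond to temperature in animals with a working Mutator pathway. None of the 10 members was called between 25°C and 20°C in wild-type by edgeR (background 32.4% of all genes tested, 9.78% lower and 22.6% higher). Before adjustment, 1 member, *fbf-2* (log2 fold change 0.21 ± 0.09), passed 0.05 in that test, DESeq2 called 2 members, *fog-1* and *fog-2*, and the fit without a filter on low counts called 1. The fitted changes ran from -0.17 (*fog-2*) to 0.43 (*fog-3*), against a median of 0.09 over all genes. *gld-1* stood at 1009, 1051 and 1264 CPM at 20°C and 1147, 1113 and 1133 at 25°C, and *fem-3* at 103, 119 and 102 and then 118, 120 and 118 CPM. The temperatures overlapped in 8 members and were apart in *fog-2*, lower at 25°C, and *tra-2*, higher at 25°C, neither past the threshold. How often all genes were apart in this way was not counted. In these same libraries the spermatogenesis genes that act downstream of the switch did move. Of 21 tested, 17 were higher at 25°C and none lower, with a median log2 change of 2.66. Of the listed spermatogenesis genes, *spe-10*, *spe-38*, *ssp-19* and *ssp-32* were at 0 in every wild-type library at 20°C. A change from 0 has no measured size, and the median may rest in part on such genes. Their summed mRNA, in CPM by total counts without TMM, was 81.4 to 91.3 at 20°C and 135 to 151 at 25°C.

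Next, the temperatures were compared in animals without MUT-16. Of the 10 members, 7 fell and 1 rose between 20°C and 25°C (background 72.6% of all genes tested, 32.3% lower and 40.2% higher), and the median over the members was -0.51 against 0.15 over all genes. The largest falls were those of *tra-1* (log2 fold change -0.96 ± 0.31), *gld-1* (-0.87 ± 0.09) and *fog-1* (-0.62 ± 0.09). The germline markers of the whole animal fell with them, as given below, and fewer germ cells and less RNA per germ cell cannot be told apart in RNA of whole animals.

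Of the genes that hold germ cells in mitosis or lead them out of it, *glp-1* and *gld-1* fell. *glp-1* stood at 307, 275 and 238 CPM in *mut-16* at 20°C and 197, 187 and 189 CPM at 25°C, with no overlap, a log2 fold change of -0.52 ± 0.09 (adjusted p = 0.000146). The drop of *gld-1* was larger, from 1287, 1160 and 1276 CPM to 724, 650 and 657 CPM, again without overlap, to 0.546 times the level at 20°C (log2 -0.87 ± 0.09, adjusted p = 9.39e-07). The FBF pair differed in their calls. *fbf-2* fell from 31.8, 33.6 and 31.6 CPM to 21.7, 22.8 and 24.1 CPM (log2 -0.50 ± 0.09, adjusted p = 0.000257), while *fbf-1* stood at 38.9, 28.7 and 31.8 CPM at 20°C and 29.3, 31.7 and 31.3 CPM at 25°C, where the groups overlapped and the change of -0.105 had a 95% interval of -0.35 to 0.14. The difference between the changes of *fbf-1* and *fbf-2* was not tested, and their sum was 65.5 ± 4.53 CPM at 20°C and 53.6 ± 2.3 at 25°C.

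Of the sex determination members, *fem-3* fell from 128, 119 and 119 CPM to 82.9, 83.7 and 80.2 CPM, a log2 fold change of -0.57 ± 0.08 (adjusted p = 1.87e-05), with every library at 25°C below those at 20°C. *tra-2*, which acts against *fem-3*, stood at 105, 93.9 and 78.2 CPM and then at 82.1, 78.7 and 77.4 CPM and was not called (log2 -0.22 ± 0.10, adjusted p = 0.0646). *tra-1* stood at 49.8, 41.5 and 46 CPM at 20°C and at 38.3, 16.4 and 17.6 CPM at 25°C, where replicate 1 was apart from the other 2. It was called (log2 -0.96 ± 0.31, adjusted p = 0.0179), the change was -1.44 (adjusted p = 3e-05) without replicate 1 at 25°C, and the call was lost without replicate 1 or 3 at 20°C or replicate 2 or 3 at 25°C, at adjusted p between 0.0581 and 0.0655. Replicate 1 stood highest for *tra-1* in all 4 groups, in wild-type with 48.6 CPM against 39.6 and 38.1 at 20°C and 50.6 against 33.1 and 30.3 at 25°C.

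The 3 *fog* genes, all needed for sperm, did not move one way. *fog-1* fell from 31.2, 30.4 and 28.3 CPM to 19.7, 18.3 and 20.4 CPM (log2 -0.62 ± 0.09, adjusted p = 2.92e-05) and *fog-2* from 61.9, 62.3 and 59.7 CPM to 44.01, 46.4 and 43.9 CPM (log2 -0.45 ± 0.09, adjusted p = 0.000454), both without overlap. *fog-3*, the least abundant member, was at 1.39, 1.35 and 1.22 CPM at 20°C and 2.04, 1.69 and 2.02 CPM at 25°C, which is 26 to 29 and 35 to 79 counts per library. Its rise (log2 0.53 ± 0.21, adjusted p = 0.0354) was lost with DESeq2, without the filter on low counts and without 5 of the 6 libraries in turn.

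The size of these falls depended on the scaling. With total counts in place of TMM, the median of all genes moved from 0.15 to 0.46 and 5 members were called in place of 8: *gld-1* (-0.56), *fog-1* (-0.31), *fem-3* (-0.255) and *glp-1* (-0.20) still fell and *fog-3* rose (0.85), whereas *tra-1* (-0.65), *fbf-2* (-0.18) and *fog-2* (-0.14) stayed negative without passing, and the uncalled values of *fbf-1* and *tra-2* turned positive (0.21 and 0.10). Of all 14623 genes tested, 7658 were higher and 1825 lower with total counts, compared with 5881 and 4728 under TMM. Relative to the median of all genes, 9 members were lower under either scaling, *gld-1* by 1.02 in both, and *fog-3* was higher.

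**Figure D2:**
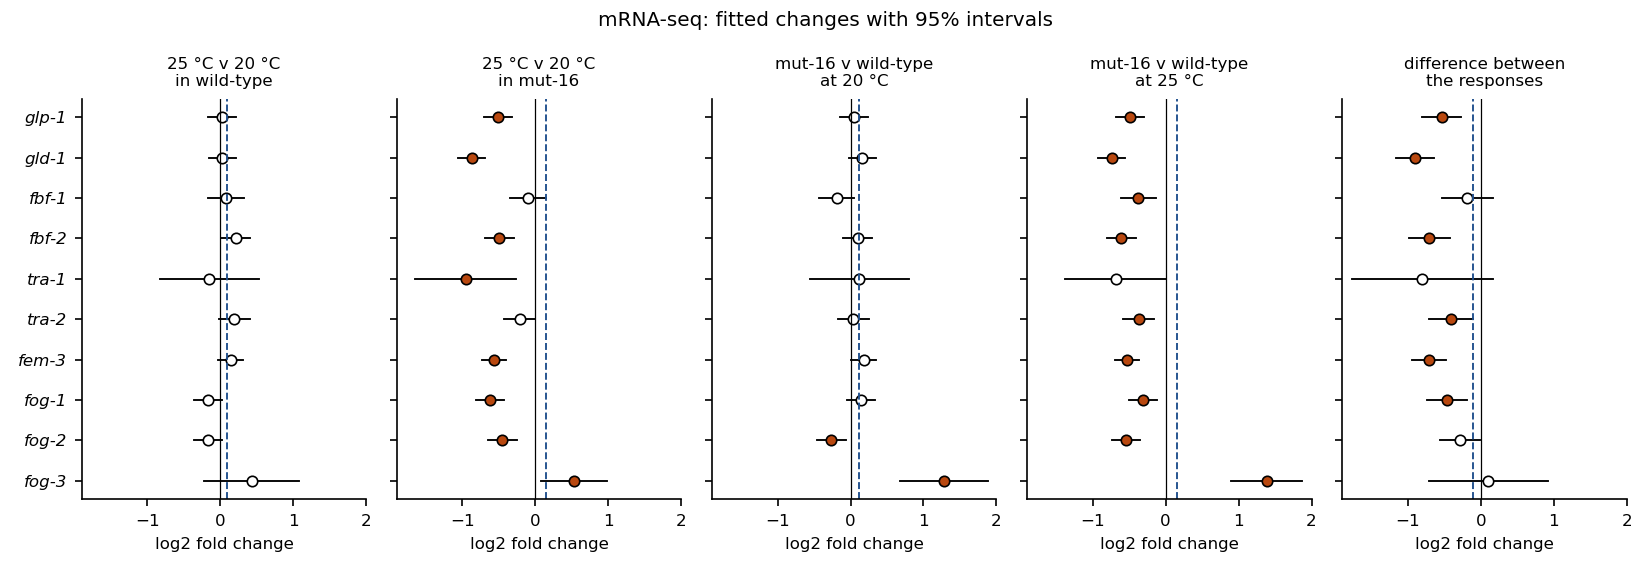
Fitted mRNA log2 fold change of each member with its 95% interval in the 5 comparisons, from edgeR with TMM scaling. Filled points passed an adjusted p of 0.05 and the dashed line is the median of all genes tested. None of the members passed in wild-type at 25°C against 20°C, 8 passed in *mut-16* at 25°C against 20°C, of which 5 also passed with total counts as the scaling, where the open points of *fbf-1* and *tra-2* in that panel moved to the right of 0. Of all 14623 genes in that panel's comparison, 5881 were higher and 4728 lower under TMM, and 7658 and 1825 with total counts.

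At 20°C, where both genotypes were compared without heat, 2 of the 10 members differed (background 37.1%). *fog-3* was higher in *mut-16* mutants, with 0.35, 0.39 and 0.81 CPM in wild-type and 1.39, 1.35 and 1.22 CPM in *mut-16*, a log2 fold change of 1.28 ± 0.28 (adjusted p = 0.00206). This rests on 7, 7 and 19 counts in the wild-type libraries. *fog-2* was lower, with 66.1, 85.6 and 68.8 CPM in wild-type against 61.9, 62.3 and 59.7 CPM (log2 -0.26 ± 0.09, adjusted p = 0.0338), and this call was lost without wild-type replicate 2 and without *mut-16* replicate 1 or 2. The other 8 changes lay between -0.19 (*fbf-1*) and 0.18 (*fem-3*), with adjusted p from 0.0849 to 0.805.

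At 25°C, 9 of the 10 members differed between the genotypes (background 73.7%, 32.6% lower and 41.1% higher), 8 lower and 1 higher in *mut-16*. *gld-1* was at 1147, 1113 and 1133 CPM in wild-type and 724, 650 and 657 CPM in *mut-16* (log2 -0.74 ± 0.09, adjusted p = 3.32e-06). *fbf-2* followed, with 38.1, 34.9 and 31.8 CPM against 21.7, 22.8 and 24.1 CPM (-0.61 ± 0.09, adjusted p = 3.96e-05). *fog-2* (-0.54 ± 0.09), *fem-3* (-0.53 ± 0.08) and *glp-1* (-0.49 ± 0.09) were lower by similar amounts, and *fbf-1* (-0.37 ± 0.11), *tra-2* (-0.37 ± 0.10) and *fog-1* (-0.32 ± 0.09) by less. The libraries of the 2 genotypes did not overlap in any of the 9 called members, but the share of all genes without overlap was not counted. *fog-3* was higher, with 0.72, 0.70 and 0.76 CPM in wild-type and 2.04, 1.69 and 2.02 CPM in *mut-16* (log2 1.385 ± 0.23, adjusted p = 7.95e-05), which is 15 to 20 counts against 35 to 79. *tra-1* was not called (-0.685 ± 0.31, adjusted p = 0.0677), and without replicate 1 of *mut-16* its change was -1.165 (adjusted p = 0.000132). With total counts as the scaling, which moved the median of all genes from 0.16 to 0.37, the directions of all 10 were kept and *fbf-1* (-0.165), *tra-2* (-0.16) and *fog-1* (-0.11) no longer passed. Of all 14623 genes tested, 2680 were then lower and 7235 higher in *mut-16*.

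Whether the mutants respond to heat otherwise than wild-type was tested directly, as the difference between the temperature responses. A negative value means that the change from 20°C to 25°C was lower in *mut-16* than in wild-type. Of the 10 members, 6 were called, all negative (background 31.1%, 21.4% lower and 9.7% higher). These were *gld-1* (-0.90 ± 0.12, adjusted p = 0.000211), *fem-3* (-0.71 ± 0.11, adjusted p = 0.000577), *fbf-2* (-0.705 ± 0.13, adjusted p = 0.00169), *glp-1* (-0.54 ± 0.13), *fog-1* (-0.46 ± 0.13) and *tra-2* (-0.41 ± 0.14, adjusted p = 0.0413). Of these 6, *gld-1* (0.03), *fem-3* (0.14), *fbf-2* (0.21), *glp-1* (0.02) and *tra-2* (0.19) had small positive changes in wild-type and *fog-1* (-0.16) a negative one, none of them called. *tra-2* was not called within *mut-16* either, and its difference was lost without any 1 of 6 libraries. For *fog-3* the difference was 0.10 with a 95% interval of -0.71 to 0.92. *fog-2* (-0.28, interval -0.56 to -0.01, adjusted p = 0.104), *fbf-1* (-0.18) and *tra-1* (-0.805) were not called, and *tra-1* reached -1.29 (adjusted p = 0.00231) without replicate 1 of *mut-16* at 25°C. With total counts as the scaling the median of all genes moved from -0.10 to 0.19, *gld-1* (-0.61), *fem-3* (-0.41) and *fbf-2* (-0.41) still passed, *glp-1*, *fog-1* and *tra-2* stayed negative without passing, and the uncalled values of *fbf-1* and *fog-2* turned positive (0.12 and 0.01). Of all 14623 genes tested, 889 were then lower and 3147 higher.

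Other genes of the same pathways were counted in the same comparisons, to be read against the shares of all genes tested given above (32.3% lower in *mut-16* between the temperatures, 32.6% lower and 41.1% higher between the genotypes at 25°C). Of 7 genes of Notch signalling in the germline stem cell niche, 6 were lower in *mut-16* at 25°C than at 20°C and none higher (median -0.64). They include *sygl-1*, a direct Notch target that keeps stem cells undifferentiated (-1.004 ± 0.14), *lip-1*, a phosphatase gene (-0.68 ± 0.08), and *lag-1*, the DNA-binding partner of activated Notch (-0.65 ± 0.09). All 14 germline RNA regulators tested were lower (median -0.74), with *laf-1*, a DEAD-box helicase gene that affects *tra-2* translation (-1.48 ± 0.21), *atx-2* (-0.92 ± 0.14) and *daz-1*, a DAZ-family gene needed for oogenesis (-0.91 ± 0.09). Of the 6 *mog* genes, which encode splicing-related proteins needed for the switch to oocytes, 4 were lower (median -0.565), led by *mog-5* (-0.62 ± 0.14). Of 15 other sex determination genes tested, 9 were lower and 1 higher (median -0.39), among the lower ones *cul-2* (-0.75 ± 0.09) and *fem-2* (-0.74 ± 0.09), both partners of FEM-3 in the complex that degrades TRA-1. In wild-type each of these lists held at most 1 gene called higher and at most 1 called lower between the temperatures. At 25°C the genotypes differed in 5 of 7 Notch genes, 14 of 14 RNA regulators and 6 of 6 *mog* genes, all lower in *mut-16*, and in 9 of 15 sex determination genes, 5 lower and 4 higher. With total counts as the scaling, the counts lower in *mut-16* at 25°C than at 20°C were 4 of 7 Notch genes (1 higher), 11 of 14 RNA regulators, 3 of 6 *mog* genes and 3 of 15 sex determination genes (3 higher), and the median of the last list between the genotypes at 25°C moved from -0.20 to 0.01. The share of 32.3% belongs to TMM. With total counts, 1825 of all 14623 genes tested were lower and 7658 higher in *mut-16* at 25°C than at 20°C.

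Whole animals hold germline and soma, so marker lists were read beside the members. Their counts are to be read against the shares or counts of all genes given above for the same comparison and scaling. Of 16 germline markers, 15 were lower in *mut-16* at 25°C than at 20°C and 16 were lower than in wild-type at 25°C, or 9 and 16 with total counts as the scaling. Their summed mRNA, in RPM, which is CPM by total counts without TMM, was 5390 to 6640 in wild-type at 20°C, 6210 to 6580 at 25°C, 5810 to 6870 in *mut-16* at 20°C and 4520 to 4650 at 25°C. All 17 oogenesis genes were lower in *mut-16* at 25°C than at 20°C (median -0.71, and 15 of 17 with total counts), with sums of 10400 to 11000 and 7480 to 8030 RPM, and in wild-type 1 of 17 was lower between the temperatures. Of 21 spermatogenesis genes tested, 12 were higher and 2 lower in *mut-16* at 25°C than at 20°C, 16 were higher and 3 lower than in wild-type at 25°C, and for the difference between the responses 16 were lower and none higher. Their sums were 81.4 to 91.3 RPM in wild-type at 20°C, 135 to 151 at 25°C, 199 to 221 in *mut-16* at 20°C and 274 to 281 at 25°C. Of 8 body muscle markers, 7 were higher at 25°C in *mut-16* compared with wild-type, and none lower. The sums were 1870 to 2000 and 3170 to 3620 RPM. None of the germline, oogenesis or muscle markers was at 0 in every library of a group. Of the spermatogenesis genes, *spe-10*, *spe-38*, *ssp-19* and *ssp-32* were at 0 in every mRNA library of wild-type at 20°C, a group that enters the difference between the responses. Markers of male-specific neurons were too low to test. They summed to 0.05 to 0.27 RPM in wild-type at 20°C and 0.65 to 1.02 in *mut-16* at 25°C, and *cwp-3* was at 0 in every library. The part of germline, muscle and male tissue in the changes of the members was not tested.

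Small RNAs over the members were compared between the genotypes to see which of the switch genes are targets of small RNAs that need MUT-16. At 20°C, 7 of the 10 members differed, 3 lower and 4 higher in *mut-16* (background 80.4%, 46.8% lower and 33.6% higher), and at 25°C the same 7 differed in the same directions (background 78.4%, 47.1% lower and 31.3% higher). The values are scaled on the bulk of small RNAs, whose median fell by 0.45 at 20°C and by 0.58 at 25°C.

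*fog-1* lost most of its small RNAs, as many other genes did. The lower quartile of the log2 change over all genes tested was -2.51 at 20°C and -2.65 at 25°C. *fog-1* stood at 72.1, 78.8 and 68.9 CPM in wild-type at 20°C and 13.1, 12.0 and 13.5 CPM in *mut-16*, to 0.176 times the wild-type level (log2 -2.51 ± 0.25, adjusted p = 2.63e-06). At 25°C it stood at 124, 76.7 and 56.0 CPM in wild-type, a wide spread, and 11.7, 8.43 and 11.7 CPM in *mut-16* (log2 -3.03 ± 0.26, adjusted p = 9.06e-07). *fem-3* was lower as well, with 49.2, 49.4 and 56.4 CPM against 26.5, 23.6 and 23.5 CPM at 20°C (-1.07 ± 0.10, adjusted p = 1.37e-07) and 48.1, 44.5 and 47.5 against 17.6, 22.6 and 20.4 CPM at 25°C (-1.21 ± 0.11, adjusted p = 6.59e-08). In *tra-2* the level in wild-type at 20°C was the one apart, at 132, 128 and 132 CPM, against 77.8, 71.0 and 72.1 CPM in *mut-16* (-0.83 ± 0.06, adjusted p = 1.08e-08). At 25°C the wild-type libraries held 73.2, 77.1 and 79.5 CPM and those of *mut-16* 63.2, 68.5 and 70.3, and this small difference (-0.18 ± 0.06, adjusted p = 0.0182) was lost without any 1 of 4 libraries (each of the wild-type ones and *mut-16* replicate 1, values -0.06 to -0.12) and turned to 0.10 with DESeq2.

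The other 4 members called held more small RNA in *mut-16* under the same scaling. *fog-2* rose from 25.5, 29.1 and 32.3 CPM to 73.3, 64.7 and 72.5 CPM at 20°C (log2 1.28 ± 0.10, adjusted p = 1.38e-08) and *gld-1* from 147, 156 and 172 CPM to 384, 348 and 360 CPM (1.20 ± 0.08, adjusted p = 1.58e-09). *fbf-2* rose from 278, 287 and 299 CPM to 581, 512 and 557 CPM (0.93 ± 0.06), and *fbf-1* from 248, 271 and 288 to 369, 338 and 337 CPM (0.37 ± 0.07). At 25°C the rises were 1.14 ± 0.08 for *gld-1*, 1.115 ± 0.10 for *fog-2*, 0.74 ± 0.06 for *fbf-2* and 0.50 ± 0.07 for *fbf-1*. The libraries of the genotypes did not overlap for any of these 4 at either temperature, and the share of all genes without overlap was not counted. *glp-1*, *tra-1* and *fog-3* were not called at either temperature, with changes from -0.21 to 0.20.

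The sign of these rises depended on what the libraries were scaled to, whereas for *fog-1* and *fem-3* the sign and the call were the same under each scaling and the size was not. MicroRNA genes held 4610 to 9424 counts in wild-type at 20°C, 4779 to 19281 in wild-type at 25°C, 9984 to 19852 in *mut-16* at 20°C and 25164 to 33882 in *mut-16* at 25°C, or 0.0462% to 0.383% of a library. This microRNA total is thus a small part of each library, and it was uneven between replicates, at 0.0946%, 0.0462% and 0.0481% in wild-type at 20°C. Scaled to that total, the median of all genes moved from -0.45 to -1.65 at 20°C and from -0.58 to -2.58 at 25°C, *fog-1* (-3.61 and -4.88), *fem-3* (-2.17 and -3.09) and *tra-2* (-1.91 and -2.08) were lower, *gld-1* (0.10) and *fog-2* (0.16) kept their sign at 20°C without passing, and the other values of those 4 members turned negative, *fbf-1* (-0.73) and *fbf-2* (-0.17) at 20°C and *gld-1* (-0.745), *fog-2* (-0.78), *fbf-2* (-1.15) and *fbf-1* (-1.39) at 25°C. Under this scaling no member was called higher, 7 were called lower at 20°C (*glp-1*, *fbf-1*, *fog-1*, *fog-3*, *fem-3*, *tra-1* and *tra-2*) and all 10 at 25°C. Most genes were lower under it too. Of all 17330 genes tested, 10812 were lower and 527 higher at 20°C, and 15925 were lower and 48 higher at 25°C. Set against that all-gene median, the 4 members that rose under TMM were higher under either scaling, *gld-1* by 1.66 and 1.74 at 20°C. Total counts as the scaling kept the sign and the call of all 7 at both temperatures. Of the germline markers, 16 of 16 held more small RNA in *mut-16* at 20°C under TMM, as did 13 of 14 germline RNA regulators and 6 of 6 *mog* genes, whereas under the microRNA scaling none of these was higher and 1, 1 and 0 of them were lower.

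**Figure D3:**
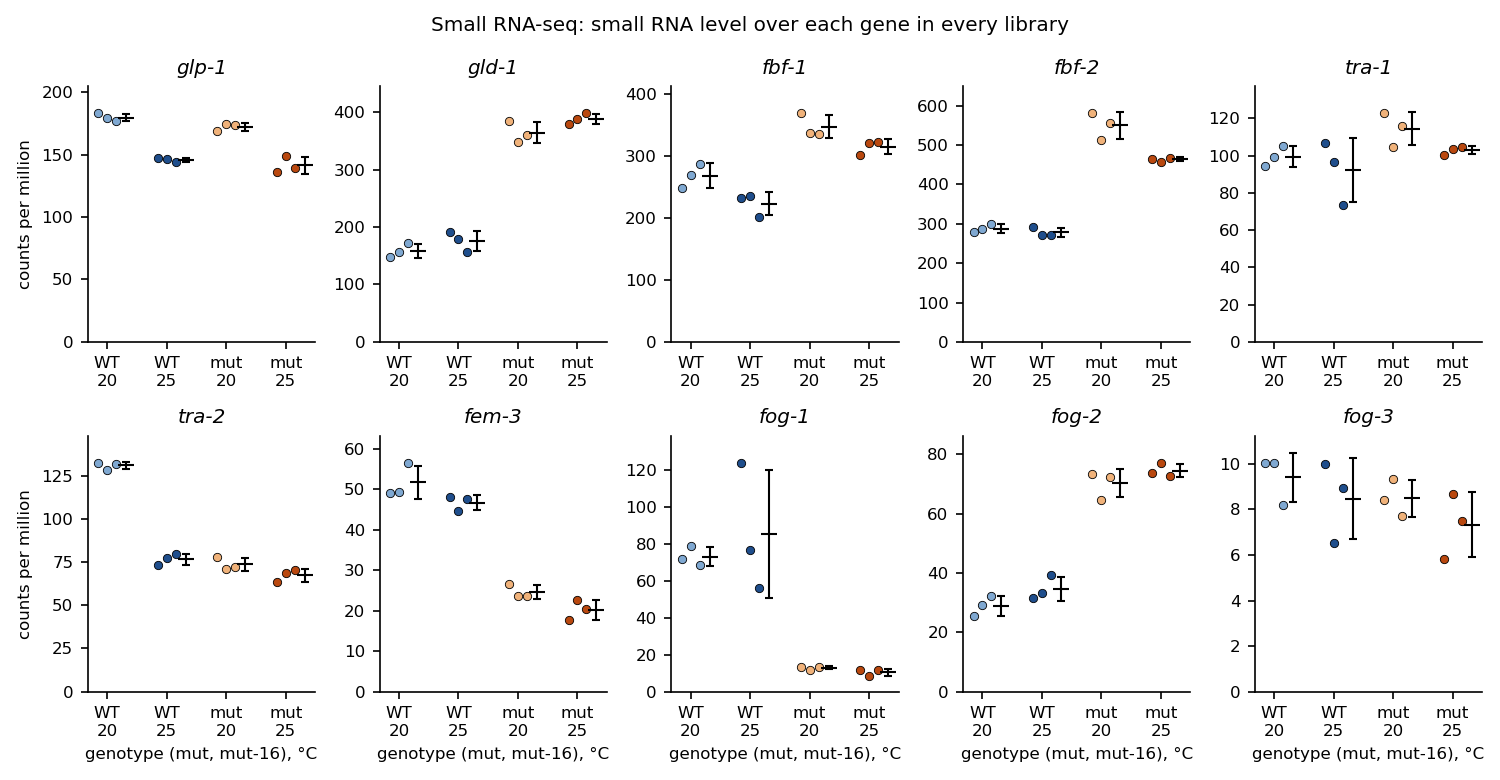
Small RNA level over each member (CPM, TMM-scaled, linear axes from 0) in every library, with the mean and SD of 3 replicates beside the points. The *mut-16* libraries (orange) lie far below wild-type (blue) in *fog-1* and *fem-3* and above wild-type in *gld-1*, *fbf-1*, *fbf-2* and *fog-2*, of which *fbf-1* and *fbf-2* turn negative at both temperatures, and *gld-1* and *fog-2* at 25°C, when scaled to the microRNA total.

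**Figure D4:**
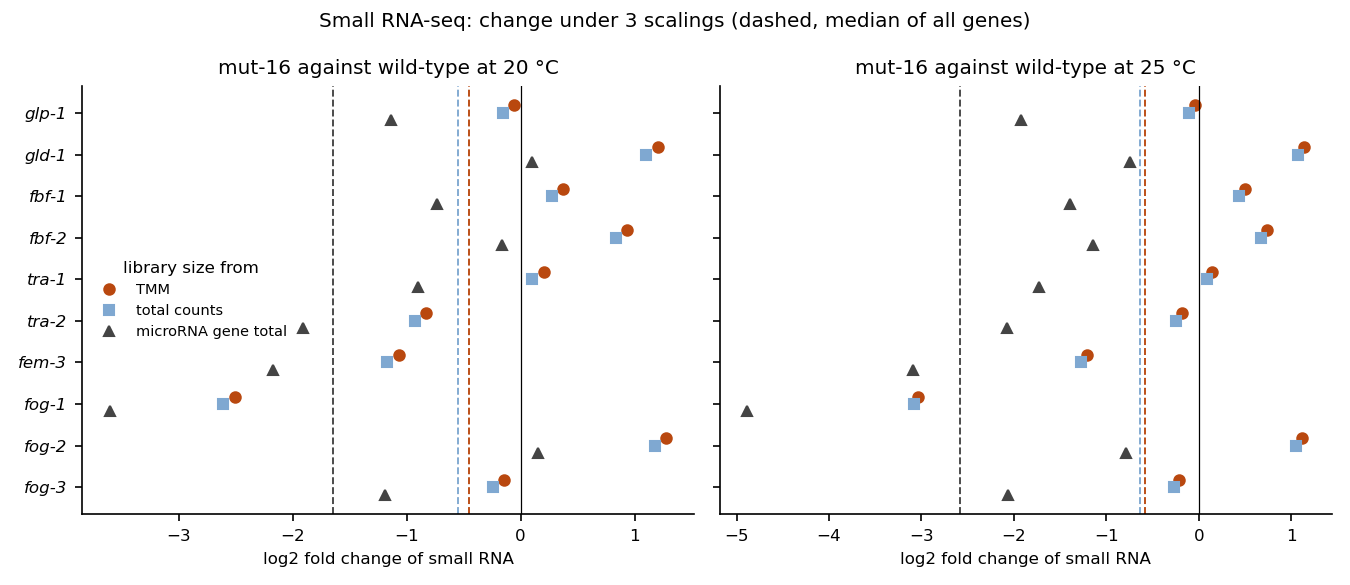
Small RNA log2 fold change of each member between *mut-16* and wild-type at 20°C (left) and 25°C (right), with library sizes from TMM (circles), total counts (squares) or the microRNA gene total (triangles). Dashed lines are the medians of all genes tested, which move from -0.45 to -1.65 at 20°C and from -0.58 to -2.58 at 25°C between TMM and the microRNA total.

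Small RNAs were next compared between the temperatures. In wild-type, 3 of 10 were lower at 25°C and none higher (background 37.2%, 17% lower and 20.2% higher). *tra-2* fell from 132, 128 and 132 CPM to 73.2, 77.1 and 79.5 CPM (log2 -0.775 ± 0.06, adjusted p = 3.68e-07), *glp-1* from 183, 179 and 177 CPM to 147, 146 and 144 CPM (-0.30 ± 0.05, adjusted p = 0.000384) and *fbf-1* from 248, 271 and 288 CPM to 233, 235.3 and 202 CPM (-0.265 ± 0.07, adjusted p = 0.0107), the last lost without replicate 3 at 20°C. In *mut-16*, 2 of 10 were lower and none higher (background 25.6%, 17.3% lower and 8.29% higher), *glp-1* (-0.28 ± 0.05, adjusted p = 0.000924) and *fbf-2* (-0.25 ± 0.06, adjusted p = 0.00634), the last not called by DESeq2. Scaled to the microRNA total, the median of all genes moved from 0.04 to -0.74 in wild-type and from -0.065 to -1.65 in *mut-16*, and 7 members were then lower in wild-type and all 10 in *mut-16*. Of all 17330 genes tested under that scaling, 6879 were lower and 468 higher in wild-type, and 13003 were lower and 55 higher in *mut-16*.

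The responses of the genotypes differed in 1 member (background 18.3%, 12.6% lower and 5.7% higher). The difference was 0.645 ± 0.09 for *tra-2* (adjusted p = 0.000221), whose small RNAs fell with temperature in wild-type and stood at 77.8, 71.0 and 72.1 CPM at 20°C and 63.2, 68.5 and 70.3 CPM at 25°C in *mut-16* (-0.13 ± 0.06, adjusted p = 0.165). It was called without each of the 12 libraries in turn, and it turned to -0.17 (adjusted p = 0.769), without passing, when scaled to the microRNA total, which moved the median of all genes from -0.14 to -0.94. The other 9 differences ran from -0.53 (*fog-1*) to 0.12 (*fbf-1*), with adjusted p from 0.124 to 0.914.

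Set side by side at 20°C, the members with fewer small RNAs in *mut-16* were not called in mRNA: *fog-1* changed by -2.51 in small RNA and 0.14 in mRNA (95% interval -0.05 to 0.34), *fem-3* by -1.07 and 0.18 (0.01 to 0.35) and *tra-2* by -0.83 and 0.04 (-0.18 to 0.25). The mRNA that rose at 20°C, *fog-3*, held 8.18 to 10.0 CPM of small RNA in wild-type and 7.71 to 9.34 in *mut-16*, a change of -0.15 (95% interval -0.57 to 0.28). *fog-2*, with the largest rise of small RNA under TMM, was the one with lower mRNA. At 25°C, mRNA was lower in *mut-16* both in members that lost small RNA (*fog-1*, *fem-3*) and in those whose small RNA was higher under TMM and lower under the microRNA scaling (*gld-1*, *fbf-1*, *fbf-2* and *fog-2*). The mRNA and small RNA libraries share no counts, and no test across the 10 genes was made.

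**Figure D5:**
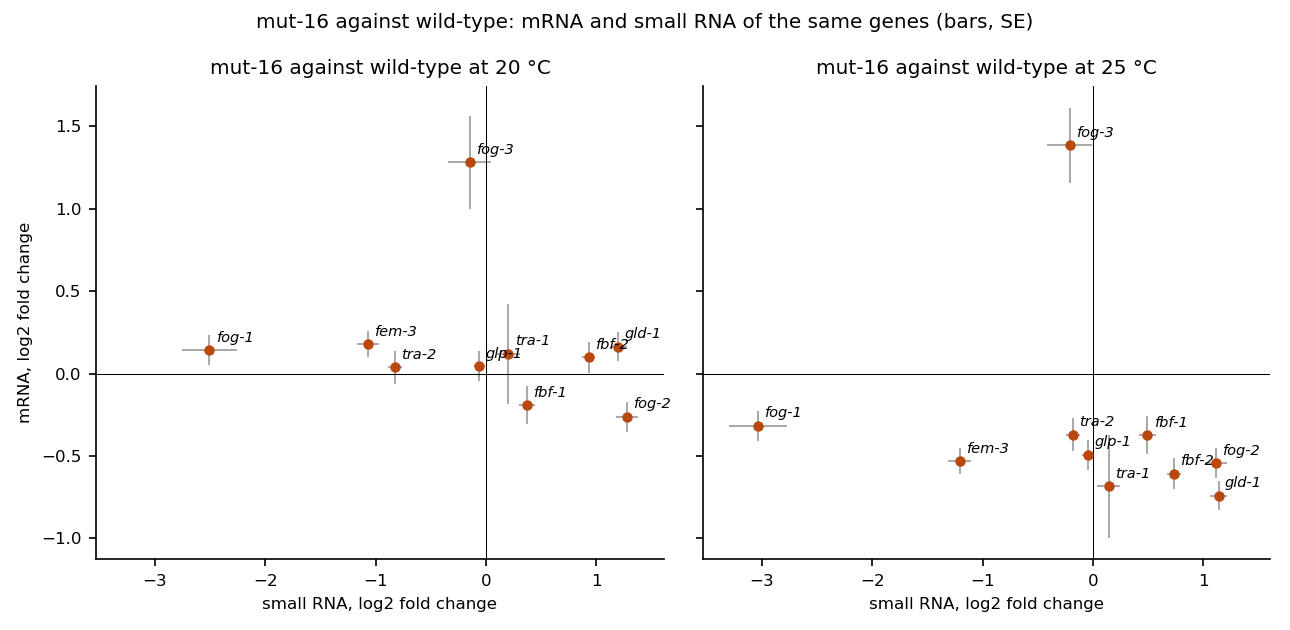
Log2 fold change between *mut-16* and wild-type in small RNA (horizontal axis) and mRNA (vertical axis) for the 10 members at 20°C (left) and 25°C (right), with SE bars, from edgeR with TMM scaling. At 20°C the mRNA values other than *fog-3* lie between -0.26 and 0.18 over the whole range of small RNA change, and at 25°C all members but *fog-3* lie below 0 in mRNA. The positive small RNA values of *fbf-1* and *fbf-2*, and at 25°C of *gld-1* and *fog-2*, turn negative under the microRNA scaling.

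For the genes with near copies, the partner was read as a check on the division of reads. The *fog-2* neighbour *ftr-1*, which is not known to take part in the switch, changed like *fog-2* in mRNA between the genotypes (-0.295 ± 0.08 at 20°C and -0.55 ± 0.08 at 25°C, both called) but was not called between the temperatures in *mut-16* (-0.095 ± 0.08, adjusted p = 0.306). In small RNA it was higher in *mut-16* at 20°C (0.87 ± 0.10, adjusted p = 1.06e-06) and at 25°C (0.68 ± 0.10) under TMM. *fog-2* made up 61.6% or more of the summed mRNA of the pair in every library. *fbf-1* made up 46.1% to 58.9% of the summed mRNA of the *fbf* pair and its share of their small RNA was 47.2% to 49.1% in wild-type at 20°C, 42.6% to 46.5% in wild-type at 25°C, 37.7% to 39.7% in *mut-16* at 20°C and 39.4% to 41.2% at 25°C. How reads shared by both genes were divided was not tested, so the values of each gene of this pair, small RNAs above all, are less certain than their sum.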

How the data were processed

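mRNA and small RNAs were sequenced from whole adults, with 3 libraries per group. According to the study's methods, reads were trimmed with Cutadapt, aligned with HISAT2 and quantified by Salmon against WS258 (versions and strand setting are not given in the sources used here). The authors deposited expected counts, that is, estimated counts per gene that need not be whole. Here they were summed over entries of 1 gene name and rounded to whole numbers. Each assay was fitted over all 12 libraries with edgeR 4.0.16 (R 4.3.3): filterByExpr, TMM, robust quasi-likelihood test, 1 coefficient per group, Benjamini-Hochberg adjustment. Standard errors are the log2 fold change divided by the root of F, and intervals are 95%. RPKM used the union of exons. Alternatives were DESeq2 1.42.0, total counts, the microRNA total, other filters and thresholds, the replicate number as a block, a covariate for unexplained letters (RE) in 10 mRNA titles, and each library left out.

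The replicates are labelled as biological, and p-values measure the spread between them. Libraries of a group were also compared in pairs by the chi-square of their counts per gene. In *mut-16* mRNA at 25°C it was 1.63 between replicates 2 and 3, the lowest of all pairs. Replicate 1 differed from them by 28.6 and 27.8, and mRNA pairs of the other groups ran from 3.15 to 46.1. The spread in that group therefore rests largely on replicate 1. How independent replicates 2 and 3 are was not tested. Intervals cover no error of dividing reads among genes. Sequences came from the WBcel235 genome with Ensembl gene models, read with Python 3.11.15 and Biopython 1.88. The members and lists (Notch niche, germline RNA regulators, *mog*, sex determination, spermatogenesis, oogenesis, germline, muscle and male neuron markers) were chosen with earlier results of these data known. From each list the text names at most 3 genes per comparison, the largest changes past the threshold, at 10 CPM or more in the higher group and with no overlap between groups, beside *ftr-1* and *mut-16*. The scaling alternatives for these lists were added after seeing the data. The fitting code was tested on simulated data.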

Additional observations from a re-analysis of the deposited data

Results flagged for a closer look

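The temperature response of mRNA differed between *mut-16* mutants and wild-type, by the interaction term of edgeR's quasi-likelihood test with adjustment over all genes, in 6 members. The differences on the log2 scale were -0.904 for *gld-1*, -0.71 for *fem-3*, -0.705 for *fbf-2*, -0.538 for *glp-1*, -0.459 for *fog-1* and -0.408 for *tra-2*, where a negative value is a lower change from 20°C to 25°C in *mut-16* than in wild-type. None of the 6 was called in wild-type, and *tra-2* was not called in *mut-16*. In small RNAs the responses differed in *tra-2*, by 0.645, with the fall in wild-type. No outlier test was run in groups of 3 libraries, but their libraries were compared in pairs by chi-square per gene. Pairs with replicate 1 of *mut-16* mRNA at 25°C gave 28.6 and 27.8, against 1.63 for the remaining pair. Those with replicate 3 of wild-type small RNA at 25°C gave 53.7 and 29.1, against 9.28. Other groups had uneven pairs too, up to 46.1 in *mut-16* mRNA at 20°C.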

How the results depend on the processing

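The scaling and the minimum fold change moved the counts of called members most. With a minimum size of 1 for the log2 fold change, the mRNA counts were 0 of 8 in *mut-16* between the temperatures, 1 of 2 at 20°C, 1 of 9 at 25°C and 0 of 6 for the difference, and the small RNA counts 0 of 3 in wild-type and 0 of 2 in *mut-16* between the temperatures, 4 of 7 at each temperature and 0 of 1 for the difference. Total counts left 5 of 8 mRNA calls in *mut-16* and 3 of 6 for the difference, and gave 4 small RNA calls in *mut-16* between the temperatures in place of 2. The matching mRNA counts of all genes are given above, and for these small RNAs 3409 of 16025 genes were then lower and 1163 higher. At least 10 counts in every library, which drops *fog-3* from mRNA-seq, left 1 at 20°C, 5 at 25°C and 3 for the difference, and an adjusted p under 0.01 left 1 at 20°C. DESeq2 gave 2 in place of 0 in wild-type mRNA and 1 in place of 2 in *mut-16* small RNA between the temperatures. Without a filter the counts were 1 in wild-type mRNA and 2 for the small RNA difference. The microRNA total gave 7 in wild-type and 10 in *mut-16* small RNA between the temperatures, to be read against the counts of all genes under that scaling given above. A fit of the compared groups alone gave 4 in *mut-16* small RNA between the temperatures. Leaving out 1 library gave mRNA counts of 0 to 1 in wild-type and 6 to 7 in *mut-16* between the temperatures, 1 to 3 at 20°C, 9 to 10 at 25°C and 5 to 7 for the difference, and small RNA counts of 3 to 4, 2 to 3, 7 to 8, 6 to 7 and 1 to 2. Signs turned in mRNA for *fbf-1* in *mut-16* between the temperatures (0.211 with total counts, 0.101 with 10 counts, and -0.212 to 0.009 with 1 library left out, positive without *mut-16* 20°C replicate 1) and in the difference (0.116 and 0.037), for *tra-2* in *mut-16* (0.097, total counts) and, in the difference, for *fog-2* (0.012, total counts) and *fog-3* (-0.434 to 0.286 with 1 library left out, negative without wild-type 20°C replicate 3). They turned in small RNA for *tra-2* at 25°C (0.096, DESeq2) and *fbf-1* at 20°C (-0.077, 10 counts), and with the microRNA total for *fbf-1* (-0.734) and *fbf-2* (-0.167) at 20°C, for *gld-1* (-0.745), *fbf-1* (-1.394), *fbf-2* (-1.146) and *fog-2* (-0.783) at 25°C and for the *tra-2* difference (-0.17). The cause was not tested. Per length, the order of the members was the same with the longest transcript in 7 of 8 groups. The depth limits *fog-3*, with 7 to 79 counts per mRNA library.

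Same-numbered deviations correlated at -0.15 to 0.211 and no comparison had every pair above 0.1, so the main fit did not pair samples by replicate number. Such weak correlations over all genes cannot exclude an effect shared by same-numbered libraries in single genes. *tra-1* mRNA, for one, stood highest in replicate 1 of every group. With the replicate number as a block, 9 in place of 8 members were called in *mut-16* mRNA between the temperatures, 10 in place of 9 at 25°C and 7 in place of 6 for the difference, and the 7 other counts were the same. The members added were *tra-2* in *mut-16* (-0.209, adjusted p = 0.0496) and *tra-1* at 25°C (-0.716, adjusted p = 0.00173) and for the difference (-0.85, adjusted p = 0.0161).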
